A study of Mus musculus with 18 samples.

Results

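Basement membranes are thin sheets of matrix that lie under epithelia and around blood vessels, and 10 genes that encode their main components are described here in the mouse retina after experimental detachment. The genes were chosen by name, with earlier results of these data known: Col4a1, Col4a2, Lama5, Lamb1, Lamb2, Lamc1, Nid1, Nid2, Hspg2 and Col18a1. All 10 were found among the 12393 genes named on the array, with 18 probe sets between them. A probe set is the group of short array probes that reports 1 transcript. Col4a2, Lamb2 and Nid2 had 1 probe set each, Lamb1 had 3 and each of the other 6 genes had 2. A gene is given by the probe set of highest mean, and the other probe sets are named where they differ.

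Detachment was made in Balb/cJ mice by injecting 1 uL under the retina, and every group carried such an injection. The control groups received saline and the treated groups received saline that held 10 uM INS37217, an agonist of the P2Y2 nucleotide receptor that was given to speed recovery. Retinas were taken 2 h, 24 h or 7 d after the injection, which gives saline and INS37217 groups at each time, 6 in all, with 3 arrays per group and 18 arrays in total. Each array held RNA pooled from more than 5 retinas, the design text calls the pools biological replicates, and the ages of the mice are not stated. An injection under the retina is a model of a small detachment that closes again: the design text describes the retina as reattached but folded at 24 h and as smooth, with incomplete function, at 7 d. No untreated retina was analysed here, so each change is relative to another injected group. The values are log2 expression levels, so a difference of 1 is a doubling. With pools of whole tissue, fewer cells of a type and less RNA per cell cannot be told apart.

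Type IV collagen and laminin each form a network in a basement membrane. Nidogens bridge the 2 networks, and the heparan sulfate proteoglycans perlecan and collagen XVIII fill and anchor them. In the eye such sheets are the inner limiting membrane on which Mueller glia rest, the sleeves around retinal vessels, the layers of Bruch's membrane below the pigment epithelium, and the capsule of the lens.

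The members lie on 9 chromosomes of GRCm38.p6, and Col4a1 and Col4a2 are the only pair on the same one. Col4a1 spans chr8:11198423-11312889 and Col4a2 spans chr8:11312805-11449287. They are read in opposite directions, and the start sites of their promoter windows, at 11312826 and 11312805, lie 21 bases apart. Nid1 spans chr13:13437602-13512275 and Nid2 spans chr14:19751257-19811787. RefSeq promoter windows of 300 bases, from 250 before to 50 after a start, were at hand for 8 of the 10 genes, and Col18a1 had 2 of them. The windows of Lamc1 and Nid2 were not used here. The windows of Col4a1 and Col4a2 shared 78 bases. The stretch before the start of Nid1 is shown because Nid1 is the member whose change passed the test and was carried by both of its probe sets. It is chr13:13437352-13437601 on the plus strand of GRCm38.p6, as RefSeq gives it, with matches to GGGCGG (a GC box) and CCAAT on either strand in capitals.
Nid1: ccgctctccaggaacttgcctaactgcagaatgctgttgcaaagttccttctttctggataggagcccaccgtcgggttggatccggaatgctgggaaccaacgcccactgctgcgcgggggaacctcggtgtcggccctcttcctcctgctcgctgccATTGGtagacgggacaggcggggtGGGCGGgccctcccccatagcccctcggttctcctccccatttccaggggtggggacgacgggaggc
GGGCGG was found on either strand in 7 of the 9 member windows and in 35.7% of all 32851 windows of that length. CCAAT was found in 5 of 9 windows, against 37.4% of all windows. TATAAA was found in 0 of 9, against 13.6% of all windows. These matches describe letters and say nothing of which factors bind there.

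The arrays carried a strong difference by replicate number. Inside a group, the correlation of replicate 1 with a further array was 0.959 to 0.981. That between replicates 2 and 3 was 0.994 to 0.997. Lamb1 was on average 0.45 below its group mean on the replicate 1 arrays, while Hspg2 was 0.34, Lama5 0.27 and Col4a1 0.21 above it. Groups follow the sample titles. The source names of 8 of the 9 INS37217 arrays mention saline alone, and that of saline 7 d replicate 2 gives 2 h, so results of the saline 7 d group are also given without it where they move. Tests were made without regard to the number, and results of a second fit, in which the replicate number was a block, stand beside them where they differ. Groups whose arrays did not overlap are named below, and many genes had such groups between times. In saline the arrays lay apart, in either direction, for 23.9% of all genes from 2 h to 24 h. The share was 12.6% from 24 h to 7 d and 16.8% from 2 h to 7 d. With INS37217 those shares were 21.9%, 11.5% and 16.9%.

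Few of the basement membrane genes changed over the week. In the INS37217 groups Nid1 and Nid2, the nidogens that tie laminin to type IV collagen, were higher at 7 d than at 2 h, 1.49-fold and 1.63-fold. Those 2 of 10 members passed the test in that comparison, against 5.65% of all genes. The members were chosen with earlier results of these data known, so such a comparison of shares does not test them as a set. In the other 11 comparisons 0 of the 10 members passed limma's test. The members did not move as a block. At 7 d the nidogens, Col4a2 and Col18a1 stood above their 2 h level, while Lamc1, Lama5 and Hspg2 stood below it by group mean. Lamc1 differed by -0.33 ± 0.16 in saline and went from 6.97 to 6.95 with INS37217. In saline without replicate 2 at 7 d, the differences from 2 h were -0.25 ± 0.18 (Lamc1), -0.01 ± 0.23 (Lama5) and 0.05 ± 0.28 (Hspg2). The other probe set of Lamc1 gave 0.08 ± 0.14 in saline. That of Hspg2 stood above its 2 h level in both treatments, going from 6.72 to 6.80 in saline and from 6.80 to 6.94 with INS37217.

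**Figure D1:**
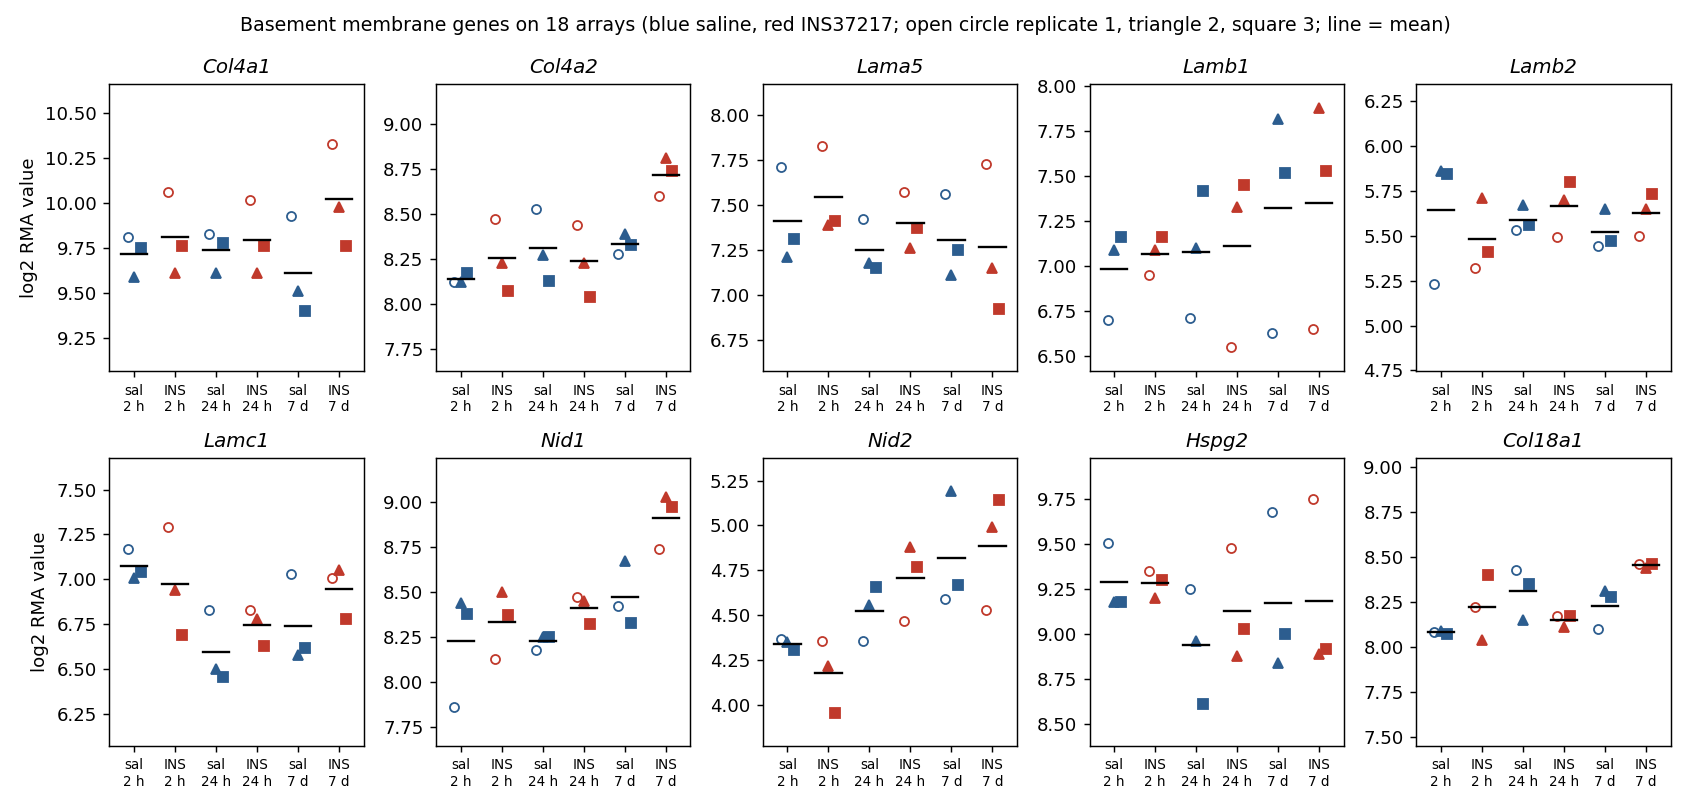
Log2 RMA values of the 10 basement membrane genes on the 18 arrays, by treatment and time; each panel covers 1.6 log2 units, symbols are single arrays by replicate number and lines are group means. Nid1 and Col4a2 are highest in the 3 INS37217 arrays at 7 d, Nid2 is higher at 7 d than at 2 h, and the replicate 1 arrays of Lamb1 and Hspg2 stand apart from the other 2.

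Nid1 encodes nidogen, also called entactin, a secreted glycoprotein that binds laminin through the gamma chain. Its levels on replicates 1, 2 and 3 were 7.86, 8.44 and 8.38 in saline at 2 h, 8.18, 8.25 and 8.25 at 24 h, and 8.42, 8.67 and 8.33 at 7 d. With INS37217 they were 8.13, 8.5 and 8.37 at 2 h, 8.47, 8.45 and 8.32 at 24 h, and 8.74, 9.03 and 8.97 at 7 d. All 3 INS37217 arrays at 7 d were above the other 15 arrays. From 2 h to 7 d Nid1 rose by 0.58 ± 0.15 (SE, n = 3 arrays per group) with INS37217 (adjusted p = 0.0353), and the 3 pairs of equal number differed by 0.61, 0.53 and 0.60. In saline the difference over the same span was 0.25 ± 0.15 (adjusted p = 0.49), or 0.15 ± 0.16 without saline 7 d replicate 2. With INS37217 most of the difference lay after 24 h: it was 0.08 ± 0.15 from 2 h to 24 h and 0.50 ± 0.15 from 24 h to 7 d (adjusted p = 0.136 without the block, 0.00637 with it). The test of the difference between these 2 changes gave 0.33 ± 0.21 (adjusted p = 1).

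The other probe set of Nid1, with lower values, gave larger changes. Its levels in saline were 6.95, 6.96 and 6.59 at 2 h, 7.05, 7.27 and 7.32 at 24 h, and 7.11, 7.78 and 7.58 at 7 d. With INS37217 they were 6.96, 7.09 and 7.27 at 2 h, 7.10, 7.5 and 7.41 at 24 h, and 7.79, 7.88 and 8.06 at 7 d. In saline the 24 h arrays already lay above all 2 h arrays, by 0.38 ± 0.17 (adjusted p = 0.223 without the block, 0.0318 with it), and the step from 24 h to 7 d was 0.28 ± 0.17. With INS37217 those steps were 0.23 ± 0.17 and 0.57 ± 0.17 (adjusted p = 0.126 for the latter without the block, 0.00607 with it). On this probe set Nid1 rose from 2 h to 7 d in saline too, by 0.66 ± 0.17 (adjusted p = 0.0337), and by 0.80 ± 0.17 with INS37217 (adjusted p = 0.00946). With each of the 18 arrays left out in turn the INS37217 rise of this probe set still passed in 17 cases, all but that without INS37217 7 d replicate 3. The saline rise passed in 14 and was lost without saline 2 h replicate 2 or 3 or saline 7 d replicate 2 or 3, with 0.51 (adjusted p = 0.168) without the array of doubtful source name. Between 2 h and 7 d Nid1 thus rose on both probe sets with INS37217 and on 1 of 2 in saline. Across the 18 arrays, with the mean of each replicate number removed, the 2 probe sets correlated at r = 0.70.

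Nid2 encodes the second nidogen, which has the same partners. Its values were low on this array, between 3.96 and 5.19 where the lowest deposited value of any probe set is 2.83, and no detection call was used here. In saline they were 4.37, 4.35 and 4.31 at 2 h, 4.36, 4.56 and 4.66 at 24 h, and 4.59, 5.19 and 4.67 at 7 d. With INS37217 they were 4.36, 4.22 and 3.96 at 2 h, 4.47, 4.88 and 4.77 at 24 h, and 4.53, 4.99 and 5.14 at 7 d. In each treatment the 7 d arrays all lay above the 2 h arrays, as they did for 7.44% of all genes in saline and 7.35% with INS37217. From 2 h to 7 d Nid2 rose by 0.71 ± 0.18 with INS37217 (adjusted p = 0.03325), and the difference in saline was 0.47 ± 0.18 (adjusted p = 0.177), or 0.29 ± 0.18 without saline 7 d replicate 2. With INS37217 most of the difference was there by 24 h: it was 0.53 ± 0.18 from 2 h to 24 h and 0.18 ± 0.18 from 24 h to 7 d. The rise rested mostly on 2 of the 3 numbers: the pairs of replicate 1, 2 and 3 differed by 0.17, 0.77 and 1.18. With the replicate block the saline change passed as well (adjusted p = 0.0214), and so did the step from 2 h to 24 h with INS37217 (adjusted p = 0.115 without the block and 0.011 with it).

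Both nidogen calls depended on single arrays. With each of the 18 arrays left out in turn, Nid1 still passed in 12 cases and Nid2 in 14, with changes of 0.48 to 0.67 and of 0.58 to 0.89. Without INS37217 2 h replicate 3, INS37217 7 d replicate 2 or INS37217 7 d replicate 3, neither passed, and the count of members called went from 2 to 0. Nid1 alone was lost without saline 24 h replicate 2, INS37217 2 h replicate 1 or INS37217 24 h replicate 2, and Nid2 alone without INS37217 2 h replicate 2. With the replicate block the adjusted p was 0.000928 for Nid1 and 0.00139 for Nid2, and the background rose to 18.6% of all genes.

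Type IV collagen is the scaffold that sets basement membranes apart from other matrices, and its commonest form is built from the products of Col4a1 and Col4a2. Neither gene passed the test in any comparison without the block. Col4a2 was even from 2 h to 24 h and then higher at 7 d with INS37217. In saline its levels were 8.12, 8.12 and 8.17 at 2 h, 8.53, 8.27 and 8.13 at 24 h, and 8.28, 8.39 and 8.33 at 7 d. With INS37217 they were 8.47, 8.23 and 8.07 at 2 h, 8.44, 8.23 and 8.04 at 24 h, and 8.60, 8.81 and 8.74 at 7 d. The INS37217 arrays at 7 d lay above all other 15 arrays. Their difference from INS37217 at 2 h was 0.46 ± 0.13 (adjusted p = 0.0585 without the block, 0.00618 with it), and from INS37217 at 24 h it was 0.48 ± 0.13 (adjusted p = 0.083 and 0.00847).

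Col4a1 shares its promoter region with Col4a2 but followed it only loosely (r = 0.43 across the 18 arrays, with the mean of each replicate number removed). In saline it measured 9.81, 9.59 and 9.75 at 2 h, 9.83, 9.61 and 9.78 at 24 h, and 9.93, 9.51 and 9.40 at 7 d. With INS37217 it measured 10.06, 9.61 and 9.76 at 2 h, 10.02, 9.61 and 9.76 at 24 h, and 10.33, 9.98 and 9.76 at 7 d. The groups overlapped throughout, with replicate 1 the highest array in each. The difference from 2 h to 7 d was -0.10 ± 0.17 in saline and 0.21 ± 0.17 with INS37217. The other probe set of Col4a1 gave 0.20 ± 0.16 and 0.22 ± 0.16, so the sign of the saline change differed between the 2 probe sets. In saline from 2 h to 24 h that probe set differed by 0.31 ± 0.16 with arrays apart, and passed with the block alone (adjusted p = 0.307 without it, 0.035 with it).

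Laminins are trimers of an alpha, a beta and a gamma chain, and the 4 laminin genes went different ways. Lamc1, the gamma chain found in most laminins, was lower in saline at 24 h than at 2 h. It measured 7.17, 7.01 and 7.04 in saline at 2 h, 6.83, 6.50 and 6.46 at 24 h, and 7.03, 6.58 and 6.62 at 7 d. The 24 h arrays all lay below the 2 h arrays, with a difference of -0.48 ± 0.16 (adjusted p = 0.0889 without the block, 0.00161 with it). With INS37217 Lamc1 measured 7.29, 6.94 and 6.69 at 2 h, 6.83, 6.78 and 6.63 at 24 h, and 7.01, 7.05 and 6.78 at 7 d, and those groups overlapped. The other Lamc1 probe set did not show the saline change (-0.02 ± 0.14), and the 2 probe sets were all but unrelated across the 18 arrays (r = 0.06).

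Lama5, an alpha chain of laminins under epithelia and endothelia, had lower group means at 24 h and 7 d than at 2 h in both treatments. It measured 7.71, 7.21 and 7.31 in saline at 2 h and 7.56, 7.11 and 7.25 at 7 d. With INS37217 it measured 7.83, 7.39 and 7.41 at 2 h and 7.73, 7.15 and 6.92 at 7 d. The differences from 2 h to 7 d were -0.10 ± 0.20 in saline and -0.28 ± 0.20 with INS37217, smaller than or close to the spread between arrays. The other probe set of Lama5 gave -0.38 ± 0.12 in saline, with groups that did not overlap (6.87, 6.74 and 7.03 at 2 h, 6.49, 6.40 and 6.61 at 7 d; adjusted p = 0.0826 without the block and 0.0155 with it). Without saline 7 d replicate 2 it gave -0.33 ± 0.13 (adjusted p = 0.273). At 24 h in saline that probe set stood -0.33 ± 0.12 from its 2 h level (adjusted p = 0.112 without the block, 0.0267 with it).

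Lamb1 and Lamb2 encode beta chains, and Lamb2 is the one known from synapses and from the inner limiting membrane. Lamb1 differed more by replicate number than by treatment: at 7 d it measured 6.63, 7.82 and 7.52 in saline and 6.65, 7.88 and 7.53 with INS37217, almost equal from treatment to treatment at each number. From 2 h to 7 d it differed by 0.34 ± 0.33 in saline (0.09 ± 0.36 without replicate 2 at 7 d) and 0.29 ± 0.33 with INS37217. Of its other 2 probe sets, 1 gave 0.46 ± 0.23 and 0.45 ± 0.23, which passed only with the block (adjusted p = 0.00656 and 0.0094, and 0.0149 for 0.40 ± 0.23 in saline from 2 h to 24 h), and the other gave 0.03 ± 0.32 and 0.40 ± 0.32. Lamb2 stayed between 5.23 and 5.86 on all arrays, with group means of 5.48 to 5.66 and no ordering by time or treatment beyond the spread.

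Hspg2 encodes perlecan and Col18a1 encodes collagen XVIII, whose end fragment, endostatin, is known to restrain vessel growth. Hspg2 measured 9.51, 9.18 and 9.18 in saline at 2 h, 9.25, 8.96 and 8.61 at 24 h, and 9.68, 8.84 and 9.0 at 7 d. With INS37217 it measured 9.35, 9.20 and 9.30 at 2 h, 9.48, 8.88 and 9.03 at 24 h, and 9.75, 8.89 and 8.92 at 7 d. Replicate 1 stood highest in every group, and no comparison of Hspg2 passed with or without the block. Its other probe set was higher with INS37217 at 7 d than at 24 h, by 0.33 ± 0.11 with groups apart (adjusted p = 0.21). On the main probe set that difference was 0.06 ± 0.25.

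Col18a1 varied little between arrays of a group. In saline it measured 8.08, 8.09 and 8.07 at 2 h, 8.43, 8.15 and 8.35 at 24 h, and 8.10, 8.31 and 8.28 at 7 d. With INS37217 it measured 8.22, 8.04 and 8.40 at 2 h, 8.17, 8.11 and 8.17 at 24 h, and 8.46, 8.44 and 8.46 at 7 d. The INS37217 arrays at 7 d lay above all 6 earlier INS37217 arrays and all 9 saline arrays. Against INS37217 at 24 h the difference was 0.30 ± 0.11 (adjusted p = 0.25, and 0.0674 with the block), and the other probe set gave 0.26 ± 0.12.

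The effect of INS37217 itself was asked at each time against saline. At 2 h 0 of 10 members passed, against 0.121% of all genes, and the differences ran from -0.16 to 0.14. At 24 h 0 of 10 passed, against 0.137%, with differences of -0.16 to 0.19. At 7 d again 0 of 10 passed, against 0.137%, but 9 of the 10 were higher with INS37217, and their median difference was 0.155, where the median over all genes was -0.02. Without saline 7 d replicate 2, 8 of 10 were higher, with a median of 0.26. The unadjusted p of limma was under 0.05 for 0 members at 2 h, 0 at 24 h and 3 at 7 d. The share of all genes under that unadjusted threshold is not given here or below, so such counts cannot be set against a background.

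**Figure D2:**
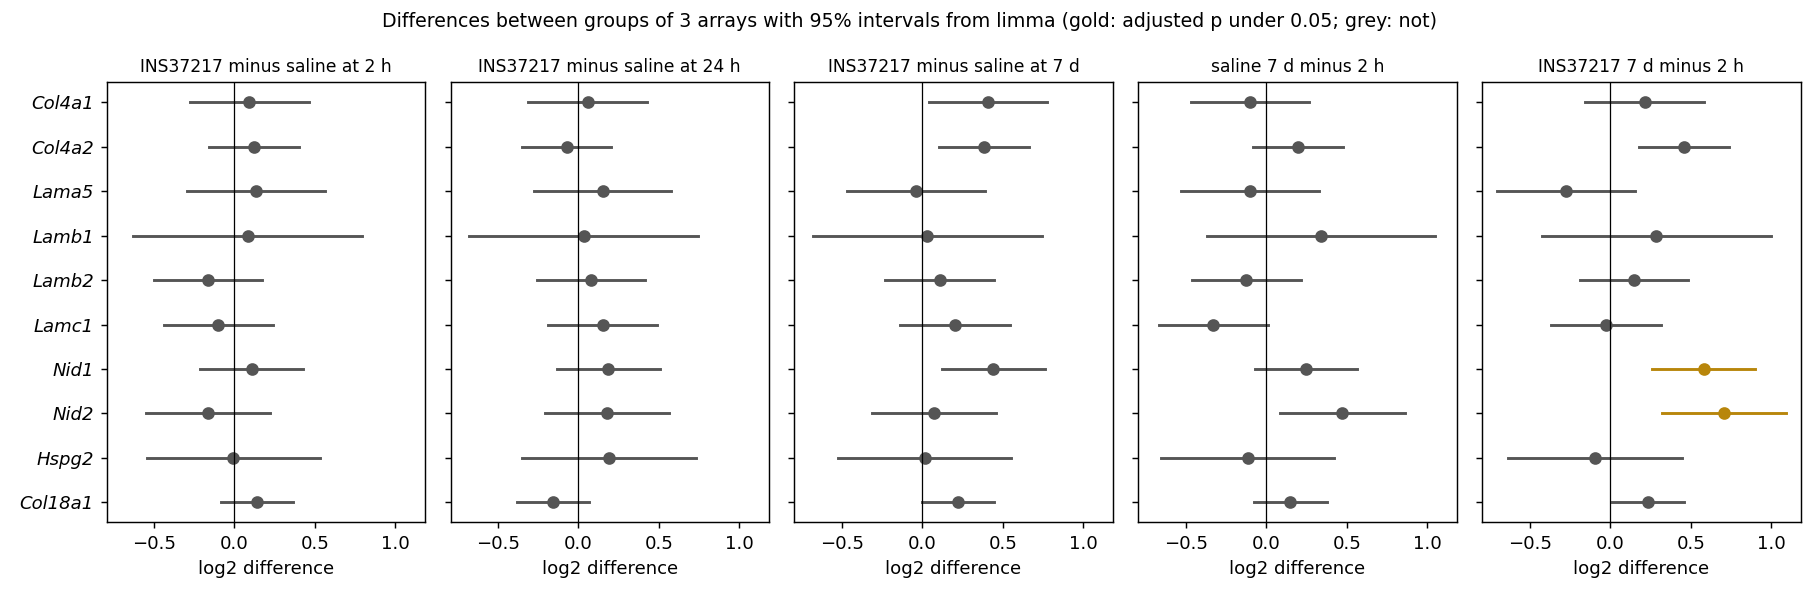
Log2 differences of the 10 genes between groups of 3 arrays, with 95% intervals from limma, for INS37217 against saline at 2 h, 24 h and 7 d and for 7 d against 2 h in each treatment. Only Nid1 and Nid2 in the INS37217 time comparison passed after adjustment (gold); at 7 d the intervals of Nid1, Col4a1 and Col4a2 against saline lie above 0 before adjustment.

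At 7 d Nid1 differed most, by 0.44 ± 0.15, and all 3 INS37217 arrays lay above all 3 saline arrays. Without saline 7 d replicate 2 the difference was 0.54 ± 0.16 for Nid1, 0.41 ± 0.15 for Col4a2, 0.36 ± 0.20 for Col4a1 and 0.26 ± 0.12 for Col18a1, again with an adjusted p of 1 each. The difference was 0.41 ± 0.17 for Col4a1, whose arrays overlapped although each number was higher with INS37217, by 0.40, 0.47 and 0.36. Col4a2 differed by 0.38 ± 0.13 and Col18a1 by 0.22 ± 0.11, both with arrays apart. Those 3 of 10 genes with ranges apart stand beside 4.21% of all genes, which is no test of the members, as they were chosen with earlier results known. None passed after adjustment: the adjusted p was 1 for all 4 without the block, and with it 0.102 for Nid1, 0.102 for Col4a1, 0.22 for Col4a2 and 0.77 for Col18a1. The second probe set of Nid1 gave a like value, 0.42 ± 0.17 with arrays apart, and the second of Col4a1 a smaller one, 0.26 ± 0.16. The remaining members gave -0.04 ± 0.20 for Lama5 (-0.14 ± 0.23 without saline 7 d replicate 2), 0.01 ± 0.25 for Hspg2 (-0.15 ± 0.28 without that array), 0.03 ± 0.33 for Lamb1 (0.28 ± 0.36 without it), 0.07 ± 0.18 for Nid2 (0.26 ± 0.18 without it), 0.11 ± 0.16 for Lamb2 and 0.20 ± 0.16 for Lamc1. The 95% interval of Lamb1 without the block ran from -0.68 to 0.74, so that fit left a change of up to about that size undecided. With the block the SE of the same difference was 0.16.

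Whether the effect of INS37217 changed with time was tested as a difference of differences. Between 2 h and 24 h 0 of 10 members passed, against 0.0484% of all genes, and 0 had an unadjusted p under 0.05. Between 24 h and 7 d 0 passed, against 0.0484%, and 2 had an unadjusted p under 0.05: Col4a2 at 0.46 ± 0.19 and Col18a1 at 0.38 ± 0.15, both with an adjusted p of 1. Between 2 h and 7 d 0 passed, against 0.0807%, and 0 had an unadjusted p under 0.05. The saline and INS37217 changes over time can therefore be given side by side but were not shown to differ.

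The course over time was compared within each treatment. In saline 0 of 10 members passed from 2 h to 24 h, against 7.21% of all genes, 0 from 24 h to 7 d, against 1.63%, and 0 from 2 h to 7 d, against 5.13%. With INS37217 0 of 10 passed from 2 h to 24 h, against 7.51%, and 0 from 24 h to 7 d, against 2.54%. Without adjustment, p was under 0.05 for 2, 0 and 1 members in the saline comparisons and for 1, 3 and 4 in those with INS37217, in the same order of spans. With the replicate block members passed in 5 comparisons, all of them between times, and in none of the others. In saline from 2 h to 24 h that was Lamc1, lower (28.2% of all genes), and from 2 h to 7 d Lamc1, lower, and Nid2, higher (21.0%). With INS37217 from 2 h to 24 h it was Nid2 (22.9%), from 24 h to 7 d Col4a2 and Nid1 (8.54%), and from 2 h to 7 d Col4a2, Nid1 and Nid2 (18.6%), all higher. In saline and from 2 h to 24 h with INS37217 these counts were at or below the background share.

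**Figure D3:**
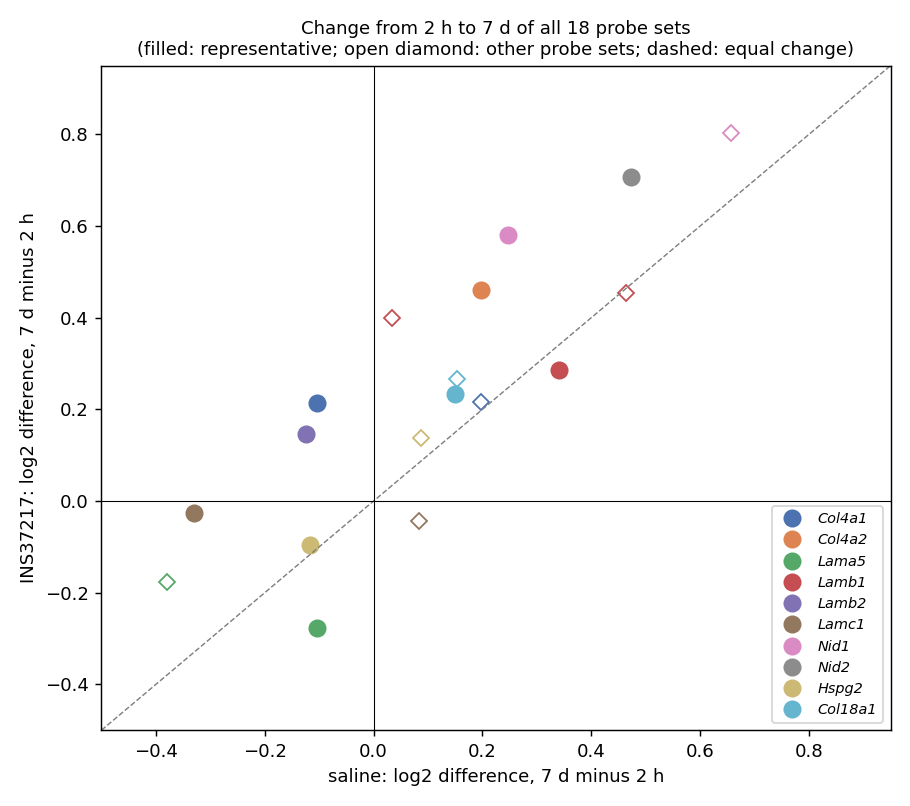
Log2 change from 2 h to 7 d of all 18 probe sets of the 10 genes, saline on the x axis and INS37217 on the y axis; filled circles are the probe sets that represent a gene and open diamonds the others. Both Nid1 probe sets and Nid2 have the highest values on the y axis and lie above the dashed line of equal change, while the 2 Lama5 probe sets lie below 0 on both axes.

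Basement membranes hold further components beside these 10, and 22 of 27 such genes were measured. Some of them changed more than any member did. Col4a3, a chain of a rarer type IV collagen, fell by 0.85 ± 0.12 in saline and fell by 1.13 ± 0.12 with INS37217 from 2 h to 24 h (adjusted p = 0.000355 and 1.66e-05). It was back up at 7 d, by 0.67 ± 0.12 and 0.96 ± 0.12 over 24 h. Col4a5, a further chain of the rarer collagens, rose by 0.56 ± 0.11 and 0.39 ± 0.11 from 2 h to 24 h. Ntn4, a netrin that binds laminin, rose by 0.65 ± 0.11 and 0.62 ± 0.11 over the same span. Of the 22 genes, 2 rose and 1 fell from 2 h to 24 h in each treatment. The shares of all genes that passed were 7.21% in saline and 7.51% with INS37217.

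From 2 h to 7 d 5 of 22 rose and 0 fell with INS37217 (5.65% of all genes passed). In saline 2 rose and 0 fell (5.13%). The 5 were Fbln2, a fibulin that binds nidogen and perlecan (1.90 ± 0.31), Sparc, a protein that binds type IV collagen (0.91 ± 0.11), Col4a5 (0.55 ± 0.11), Fbln1, a fibulin (0.54 ± 0.11), and Ntn4 (0.44 ± 0.11). In saline they were Ntn4 (0.62 ± 0.11) and Col4a5 (0.42 ± 0.11), of which Col4a5 no longer passed without saline 7 d replicate 2 (0.44 ± 0.12, adjusted p = 0.0685). With the block 6 were up and 2 down from 2 h to 7 d with INS37217 (18.6% of all genes passed). In saline 4 were up and 1 down (21.0%). From 2 h to 24 h 3 were up and 4 down with INS37217 (22.9%), and 3 up and 3 down in saline (28.2%). From 24 h to 7 d 4 rose with INS37217, Fbln2, Col4a3, Fbln1 and Sparc (2.54% of all genes passed), and 1 in saline, Col4a3 (1.63%). With the block 6 rose and 0 fell with INS37217 over that span (8.54%), and 1 rose and 1 fell in saline. Between the treatments 0 of 22 passed at 2 h, 24 h or 7 d, with an unadjusted p under 0.05 for 1, 0 and 4, and with the block 3 passed at 7 d, all higher with INS37217. The test of whether the changes differed between treatments called 0 of 22 for each span without the block. With it, 1 was called for 24 h to 7 d and 2 for 2 h to 7 d, all with the more positive change under INS37217.

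The receptors that bind these sheets moved little. Of 16 measured out of 17, Cd151, a tetraspanin that partners laminin-binding integrins, rose from 2 h to 24 h by 0.57 ± 0.14 in saline and by 0.67 ± 0.14 with INS37217. Itga6, a laminin-binding integrin chain, rose by 0.45 ± 0.11 in saline over that span. With INS37217 both were also higher at 7 d than at 2 h, by 0.51 ± 0.14 and 0.43 ± 0.11. Without the block no receptor fell in any comparison, and 0 of 16 passed between treatments at any time, with an unadjusted p under 0.05 for 1, 0 and 4 at 2 h, 24 h and 7 d. With the block 1 passed as higher with INS37217 at 7 d. In saline the block gave 4 up and 1 down from 2 h to 24 h (28.2% of all genes passed). It gave 0 up and 2 down from 24 h to 7 d, and 1 up and 2 down from 2 h to 7 d (21.0%). With INS37217 it gave 2, 1 and 4 up over those spans and 0 down (22.9%, 8.54% and 18.6%).

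Enzymes that fold, trim and crosslink collagen mostly rose where they changed. Of 17 measured genes 5 rose from 2 h to 7 d with INS37217 (5.65% of all genes passed) and 2 in saline (5.13%), and 0 fell. With the block 9 rose and 1 fell with INS37217 (18.6% of all genes passed) and 4 rose and 0 fell in saline (21.0%). From 2 h to 24 h the block gave 5 up and 1 down in saline (28.2%) and 5 up and 2 down with INS37217 (22.9%). Without the block 2 and 3 rose and 0 fell over that span (7.21% and 7.51% of all genes passed). From 2 h to 7 d the changes were as follows. Pcolce, which aids the trimming of procollagens, rose by 1.53 ± 0.22 in saline and by 1.88 ± 0.22 with INS37217. Serpinh1, the collagen chaperone HSP47, rose by 0.79 ± 0.12 and 0.97 ± 0.12. The other 3, with INS37217, were the crosslinking oxidases Loxl1 (1.13 ± 0.17) and Lox (0.85 ± 0.23) and Crtap, part of a prolyl hydroxylase complex (0.72 ± 0.20). Between treatments 0 of 17 passed at any time without the block, with an unadjusted p under 0.05 for 0, 0 and 3, and 2 passed with it at 7 d, both higher with INS37217, and the median difference at 7 d was 0.21 against -0.02 over all genes.

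Matrix proteases and their inhibitors changed most and in both directions. From 2 h to 24 h 4 of 16 measured genes rose and 4 fell in each treatment (7.21% of all genes passed in saline, 7.51% with INS37217). Adamts1, a secreted metalloprotease, fell by 2.01 ± 0.22 in saline and fell by 2.09 ± 0.22 with INS37217. Plat, tissue plasminogen activator, fell by 2.00 ± 0.11 in saline and fell by 2.11 ± 0.11 with INS37217. Timp3, an inhibitor bound to Bruch's membrane, fell by 1.59 ± 0.11 and fell by 1.34 ± 0.11. Timp1, a soluble inhibitor, rose by 1.76 ± 0.15 and 2.07 ± 0.15, and Mmp3, stromelysin, rose by 1.23 ± 0.21 and 2.61 ± 0.21.

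Of the 4 lists, this one alone held genes that passed between the treatments without the block. Mmp3 was higher with INS37217 at 24 h, by 1.27 ± 0.21 (adjusted p = 0.0263), and Timp1 at 7 d, by 0.96 ± 0.15 (adjusted p = 0.0122). At 7 d all 16 genes were higher with INS37217, and 1 passed without the block and 4 with it; without saline 7 d replicate 2, 15 of 16 were higher and 0 passed, with Timp1 at 0.98 ± 0.17 (adjusted p = 0.056). With INS37217 6 rose and 4 fell from 2 h to 7 d (5.65% of all genes passed). Among them were Ctss, a cathepsin of macrophages, which rose by 2.41 ± 0.30, and Adamts4, an aggrecanase, which fell by 1.25 ± 0.24. In saline over that span 1 rose, Ctss by 1.54 ± 0.30, and 4 fell (5.13% of all genes passed). With the block 5 rose and 4 fell (21.0% of all genes passed). Without the block, 1 rose and 3 fell when saline 7 d replicate 2 was left out. Between treatments the block gave 1 lower with INS37217 at 2 h and 2 higher at 24 h.

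Markers of cells that make or border basement membranes moved beside these genes. Marker counts here and in the next paragraph stand against these shares of all genes that passed without the block. From 2 h to 7 d the shares were 5.65% with INS37217 and 5.13% in saline. From 2 h to 24 h they were 7.51% and 7.21%, and between treatments at 2 h the share was 0.121%. The tissue held retina by its rod markers, 8 genes with a mean of 12.00 to 12.46 by group and Sag, the arrestin of rods, the highest. Lens markers had means of 10.93 to 11.82 by group, so the rod markers do not show that the tissue was retina alone. The 10 basement membrane genes together had a mean of 7.55 in saline and 7.74 with INS37217 at 7 d. Fibroblast markers (9 genes) had a mean of 6.92 in saline at 7 d, with arrays from 6.91 to 6.93, and of 7.51 with INS37217, with arrays from 7.51 to 7.52. With INS37217 they stood at 6.54 at 2 h, and 5 of 9 rose from 2 h to 7 d, against 1 of 9 in saline, where 1 of 9 also fell. The list was not uniform: counted without a test, 6 of 9 were higher at 7 d than at 2 h with INS37217 and 5 of 9 in saline. The lowest fibroblast marker at 7 d, Col1a1, stood at 5.17 in saline and 5.90 with INS37217. The highest gene of the list, Thy1, stood at 8.99 and 8.85, and which cells of the tissue expressed it was not tested. Macrophage and microglia markers (10 genes) had a mean of 7.33 in saline, with arrays from 7.17 to 7.41, and of 7.79 with INS37217, with arrays up to 7.91, at 7 d, and 10 of 10 rose from 2 h to 7 d with INS37217, 7 of 10 in saline. Pericyte and smooth muscle markers (9 genes) had a mean of 6.70 and 6.85 at 7 d, and 3 of 9 rose from 2 h to 7 d with INS37217, 0 in saline.

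Endothelial markers (10 genes) had a mean of 5.97 in saline and 5.93 with INS37217 at 7 d, with Kdr the highest and Tie1 the lowest. From 2 h to 7 d 1 of 10 rose with INS37217 and 2 of 10 in saline. The genes of this list differed: Kdr went from 8.79 to 9.64 in saline and from 8.52 to 9.64 with INS37217. Tie1 went from 4.36 to 4.47 and from 4.31 to 4.34. Counted without a test, 6 of 10 were higher at 7 d than at 2 h in saline and 8 of 10 with INS37217. Mueller glia markers (8 genes) had a mean of 9.17 in saline and 8.83 with INS37217 at 24 h, where 4 of 8 passed as lower than at 2 h in each treatment. The list was split: 4 of 8 in saline and 1 of 8 with INS37217 were higher at 24 h than at 2 h. Of these, 2 and 1 passed with the block. The list means stood at 9.88 and 9.82 at 7 d. Pigment epithelium markers (9 genes) stood at 8.03 and 7.87 at 2 h and at 8.79 and 8.71 at 7 d, when 5 and 3 of 9 had risen. At 2 h this list was split between the treatments. There 6 of 9 were higher with INS37217 than in saline, while 2 passed as lower, or 3 with the block. Lens markers (10 genes) had a mean of 10.93 in saline at 2 h and of 11.53 to 11.82 in the other 5 groups, and 9 of 10 were called higher at 7 d than at 2 h in saline and 1 of 10 with INS37217. At 2 h 3 of 10 lens genes were called higher with INS37217 than in saline. In the 7 d INS37217 arrays, where Nid1, Col4a2 and Col18a1 were highest, the list means of fibroblast and macrophage markers lay above all saline arrays of that time. The list means of endothelial and Mueller glia markers overlapped between the treatments. Single genes of the first 2 lists overlapped too, such as Dcn (7.98 to 9.13 with INS37217, 7.69 to 8.69 in saline) and Csf1r (9.48 to 10.05 and 9.34 to 10.13). Between treatments at 7 d, 2 of 9 fibroblast and 1 of 10 macrophage markers were called higher with INS37217. For endothelial and Mueller glia markers it was 0 of 10 and 0 of 8, against 0.137% of all genes. Without saline 7 d replicate 2 the list means of that group moved by less than 0.1 each, and in saline from 2 h to 7 d 3 pigment epithelium, 1 endothelial, 0 fibroblast, 7 macrophage and 8 lens genes were called higher. The part of these cells in the values of the basement membrane genes was not tested.

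**Figure D4:**
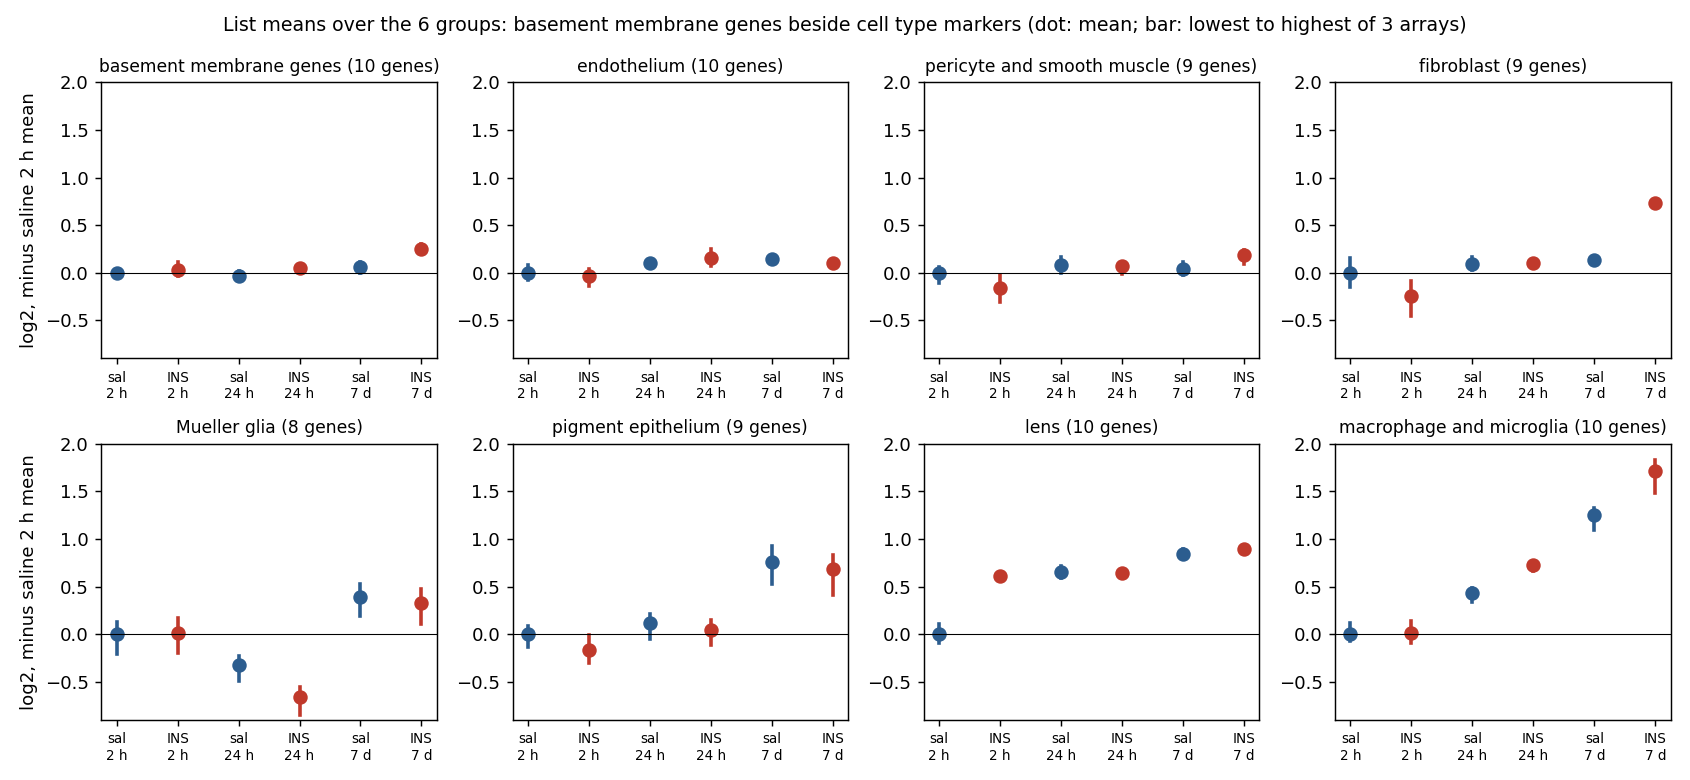
Mean log2 level of the 10 basement membrane genes and of 7 lists of cell type markers in the 6 groups, as the difference from the saline 2 h mean; dots are group means and bars run from the lowest to the highest of 3 arrays. The mean of the fibroblast markers is highest with INS37217 at 7 d, while that of the macrophage and microglia markers climbs with time in both treatments. The mean of the endothelial markers stays near 0, although Kdr, the highest of them, was higher at 7 d than at 2 h in both treatments.

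The members varied together only in part. All the following correlations are over 18 arrays with the mean of each replicate number removed, and the arrays share their groups, so that a common course over time adds to each value. Col4a2 was most like Nid1 by Pearson's r (0.81, against 0.74 with Col18a1), but by Spearman's rho it was more like Col18a1 (0.72) than Nid1 (0.51). Lamb1 was like Nid2 (r = 0.74, rho = 0.75). Lama5 ran against Nid2 (r = -0.61, rho = -0.50) and Col4a2 (r = -0.54, rho = -0.35), and Hspg2 against Lamb1 (r = -0.56, rho = -0.62) and Nid2 (r = -0.53, rho = -0.41). Lama5 and Hspg2 went together (r = 0.51, rho = 0.53). Nid1 was closest to the mean of the 10 genes (r = 0.90, where Nid1 is part of the mean). Lamc1 (r = 0.33), Lamb2 (r = 0.23) and Hspg2 (r = 0.00) followed that mean weakly or not at all, and only Lama5 had a negative r (-0.25).

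The 5 genes most like the mean of the members, among 7068 genes compared, were Loxl1 (r = 0.89), Fstl1, a secreted follistatin-like protein (r = 0.87), Igfbp7, a secreted protein of vessel walls (r = 0.86), Thbs1, thrombospondin (r = 0.86), and Col1a2, a chain of fibrillar type I collagen (r = 0.86). Each had its highest group mean with INS37217 at 7 d. Loxl1 stood there at 8.17 against 7.60 in saline, Thbs1 at 7.73 against 7.20 and Col1a2 at 8.58 against 7.03.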

How the data were processed

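RNA of retina pools was labelled with biotin and hybridised to Affymetrix mouse arrays. The authors deposited log2 expression values computed by RMA, per the submitters' processing notes, and their range of 2.83 to 14.15 fits that unit. RMA subtracts background, equalizes the arrays and combines the probes of a set, which compresses low values. The RMA version used was not given in the sources used here, nor were its settings. Arrays have no read depth, and their number, 3 per group, limits the precision.

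From 22690 probe sets, 64 Affymetrix controls were left out and 22626 tested. Of these, 20380 had 1 gene in the platform annotation, 691 several and 1555 none. Symbols of 20351 were found by gene ID in the RefSeq table of GRCm38.p6. limma 3.58.1 in R 4.3.3 fitted 1 mean per group on all 18 arrays, with 12 contrasts, eBayes and Benjamini-Hochberg adjustment over all probe sets. A change passed at an adjusted p under 0.05, and limma gave all p values in the text. A gene is represented by whichever of its probe sets has the highest mean.

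Arrays with the same replicate number deviated from their group means together (r of 0.426 to 0.921 over 45 pairs), while what the number stands for is not given in the labels. The fit with the number as a block is therefore printed beside results that it changes.

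The 10 members and all lists were chosen with earlier results of these data known. Named are the members, up to 4 called genes of largest change per companion list and comparison (a gene so named in 1 comparison may be given in others), and the 5 genes whose levels correlate best with the mean of the members. Lists are described by counts and medians, with no list test. For Mueller glia, lens and the other markers, genes not measured were left out of the means. The steps were tested on simulated data. Alternatives were another quantile normalization, equal array medians, a filter on low probe sets, trended and robust moderation, only the arrays compared, the block, only replicates 2 and 3, the mean of a gene's probe sets, and each array left out. A count over any probe set of a gene, and all lists without saline 7 d replicate 2, were added after the values were seen.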

Additional observations from a re-analysis of the deposited data

How the results depend on the processing

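With 3 pools per group the calls among the 10 genes were few and moved with the settings. No alternative reversed the sign of a change that had passed with or without the block. Changes that had not passed could turn: that of Hspg2 between treatments at 7 d went from 0.01 to -0.15 without saline 7 d replicate 2. For INS37217 at 7 d against 2 h, 2 genes were called. That count was 1 after another quantile normalization (Nid2 lost, at 0.76), 1 with equal array medians (Nid1 lost, at 0.57), 1 when probe sets under the median level were left out, which leaves 8 of the genes, 0 with only the arrays compared, and 5 with only replicates 2 and 3. Apart from the block, the share of all genes called under the alternatives is not given, so their counts cannot be set against a background. For saline at 24 h against 2 h the count went from 0 to 1 with the replicate block and 2 with replicates 2 and 3. For saline at 7 d against 2 h it went from 0 to 2 with the block, 3 with replicates 2 and 3, 1 with the mean of all probe sets of a gene and 1 with any probe set of a gene. For INS37217 at 24 h against 2 h it went from 0 to 1 with the block and 1 with replicates 2 and 3. For INS37217 at 7 d against 24 h it went from 0 to 2 with the block, 2 with replicates 2 and 3 and 1 with the mean of probe sets. The cause of these moves was not tested beyond what the settings themselves remove. With single arrays left out the counts ran from 0 to 3 for INS37217 at 7 d against 2 h, from 0 to 1 for INS37217 at 7 d against 24 h, from 0 to 1 for saline at 24 h against 2 h, and stayed at 0 in the other 9 comparisons. The counts for INS37217 against saline at each time, and for the change of that effect with time, were 0 under every alternative run. Among the probe sets that represent the 10 genes, the block changed no other call.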
